A study of Mus musculus with 12 samples.

Results

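Chemokines are the small secreted proteins that call leukocytes to a vessel wall, and their ligand genes were followed here in mouse carotid arteries 1 day after partial ligation. The members were chosen by gene symbol: every probe whose platform symbol began with Ccl, Cxcl, Cx3cl or Xcl and a number, with the probe of the highest mean over the 12 arrays standing for its gene. This gave 56 probes and 36 ligand genes among 19057 genes with a probe. The series concerns fibulin-5 (Fbln5), an elastic fibre protein, in arteries under disturbed flow. RNA of explanted carotid arteries was measured on 12 one-colour Illumina arrays in 4 groups of 3: wild-type right artery (WT RCA), wild-type left artery (WT LCA), Fbln5 knockout right artery (KO RCA) and Fbln5 knockout left artery (KO LCA). The left common carotid of each mouse was partially ligated, which brings disturbed flow, and the right one was left alone. Every array is labelled C57Bl/6J, and no age is given in the labels used here. The labels say KO, whereas the series' design text speaks of a knockdown, and they do not describe the allele or name a cell type in which it acts. Since the labels do not state that each array of a group is a mouse of its own, p-values cover only the spread between these samples, which may be technical. The Fbln5 probe measured 80.6 to 97.4 and lay below the background level defined next on all 12 arrays, so it checks nothing about the knockout.

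Most chemokines bind proteoglycans on the endothelium and act through G protein-coupled receptors on leukocytes. Inflammatory members are switched on by cytokines and by the transcription factor NF-kB, while homeostatic members are made steadily and guide cell traffic and retention. In arteries, disturbed flow is known to prime the endothelium for NF-kB activity, and monocyte and neutrophil attractants are among the genes studied there. Cx3cl1 and Cxcl16 differ from the rest of the family in being made as membrane-anchored proteins that are later shed.

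Promoter sequences of 25 of the 36 genes were in the RefSeq table (build GRCm38.p6). The 250 bases before the start are printed for Ccl9 and Ccl6, neighbours on the minus strand of chromosome 11 that both measured highest in KO LCA, to show the sequence upstream of this pair. No part is in capitals, since the files used here hold no motif to mark.
Ccl9 (chr11:83578637-83578886, minus strand): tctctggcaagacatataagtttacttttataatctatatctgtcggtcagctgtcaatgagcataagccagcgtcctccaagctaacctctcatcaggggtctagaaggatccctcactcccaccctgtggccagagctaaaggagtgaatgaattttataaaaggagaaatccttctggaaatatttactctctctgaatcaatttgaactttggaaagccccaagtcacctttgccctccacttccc
Ccl6 (chr11:83593088-83593337, minus strand): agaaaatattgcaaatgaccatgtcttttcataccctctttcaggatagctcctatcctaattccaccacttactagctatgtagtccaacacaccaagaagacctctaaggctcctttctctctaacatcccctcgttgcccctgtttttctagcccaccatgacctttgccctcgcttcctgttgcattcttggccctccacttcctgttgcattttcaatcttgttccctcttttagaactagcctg

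The G and C content was 43.6% for Ccl9 and 45.2% for Ccl6, with 2 CpG pairs in each. The same stretch of the 32851 promoters in the table had a median of 52.4% and 6 CpG pairs, and that of the 28 chemokine promoters in it 51.4% and 4. For Cxcl1, on chromosome 5, the stretch held 59.2% and 10 CpG pairs. These are descriptions of sequence and were not tested against the intensities.

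Intensities on these arrays run down to a floor of 72.4, so a background level was taken from genes an artery has little reason to express. It was the 95th percentile of the 1287 olfactory receptor probes on the same array, called the receptor level here. That level lay between 95.6 and 107 on 11 arrays and at 127 on WT LCA 3. A gene at or under it has only a bound, and differences near it are compressed. WT LCA 3 also stood apart in having the lowest median correlation with the other arrays (r = 0.63) and the smallest share of all genes above the receptor level (15.9%, against 28.3% to 49.0% on the others), so the ligand, receptor and inducer differences that rest on WT LCA and are given with an adjusted p are also given without it. The labelled tissue was checked against markers of the artery wall. Of 12 endothelial markers, 8 to 10 were above the receptor level throughout each group. Of 10 smooth muscle markers, 5 were so in KO LCA, 2 in either right artery group and 0 in WT LCA. Acta2 and Mylk were above it on 11 arrays, Smtn on 8, Myh11 and Synpo2 on 7 and Tagln on 5. Actg2 was above it on 3, and Cnn1, Des and Lmod1 on 1 each. The share of all genes, given next, was also highest in KO LCA and lowest in WT LCA. These marker counts were not repeated without WT LCA 3.

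Few chemokine ligands lay above this background. On all 3 arrays of WT RCA, 2 of the 36 were above the receptor level (5.56%, against 22.7% of all genes). WT LCA had 1 (2.78%, against 10%), KO RCA 4 (11.1%, against 24.5%) and KO LCA 6 (16.7%, against 26.1%). In every group the share of ligands was below that of all genes. Without WT LCA 3 the WT LCA count was 7 in place of 1, without WT RCA 3 the WT RCA count was 4, and without KO LCA 2 the KO LCA count was 12, so the counts do not order the groups. The 7 genes above the level throughout at least 1 group were Cxcl1, Cxcl12, Cxcl16, Cx3cl1, Ccl6, Ccl9 and Ccl27a, and 33.2% of all genes met that mark. Cxcl1 alone was above it on all 12 arrays, as were 7.94% of all genes. By contrast 16 ligands were above it on no array (29.5% of all genes): Ccl1, Ccl3, Ccl4, Ccl8, Ccl17, Ccl21c, Ccl22, Ccl26, Ccl28, Cxcl2, Cxcl3, Cxcl10, Cxcl11, Cxcl14, Cxcl15 and Cxcl17. The other 13 crossed it on 1 to 7 arrays with no complete group among them. Ccl11, the eosinophil attractant eotaxin, did so on 7 arrays, and Ccl2, the main monocyte attractant, only on 1.

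**Figure D1:**
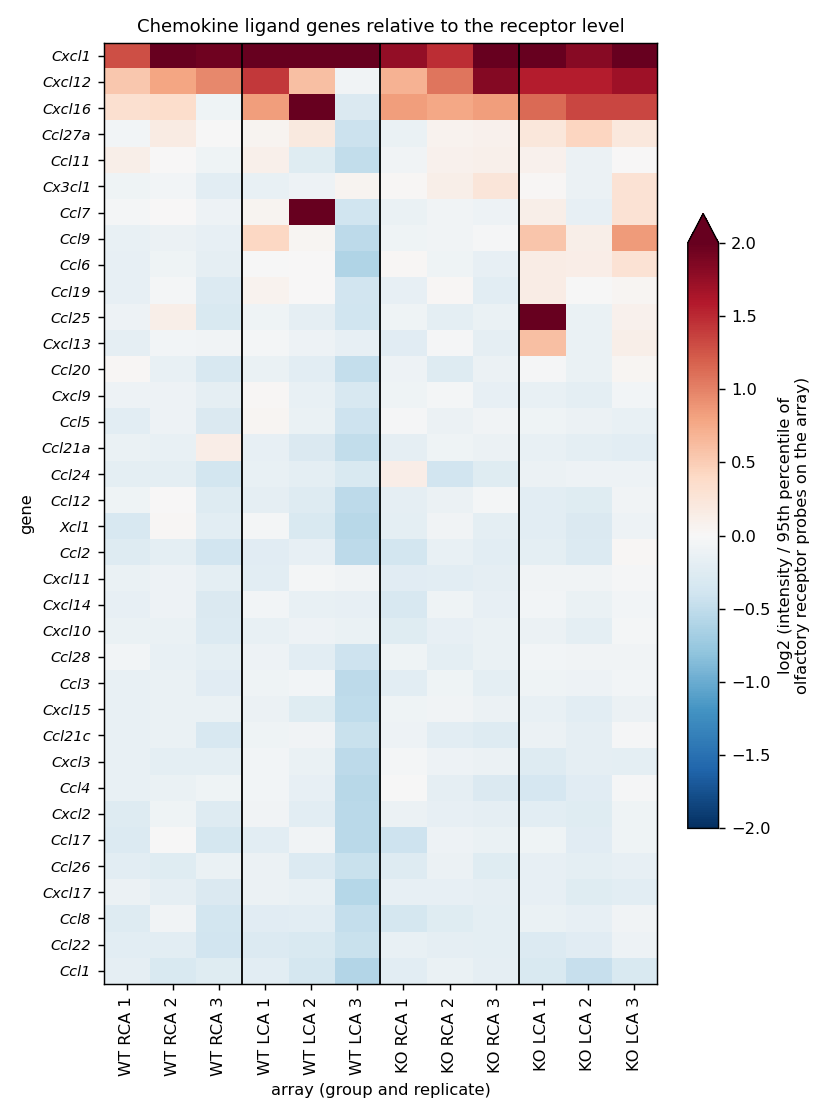
Each row is 1 of the 36 chemokine ligand genes and each column 1 of the 12 arrays; colour gives log2 of the probe's intensity over that array's receptor level, with values beyond 2 drawn at the end of the scale. Cxcl1 is above the level in all 12 columns, and Cxcl12, Cxcl16, Ccl6 and Ccl9 are above it on all 3 KO LCA arrays.

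**Figure D2:**
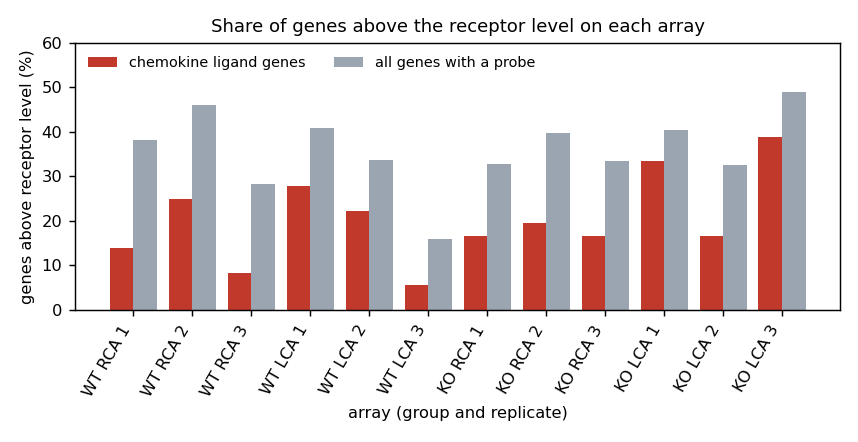
Bars give, for each array, the percentage of the 36 chemokine ligand genes and of all 19057 genes above that array's receptor level. WT LCA 3 has the lowest bar for all genes (15.9%), and the bars of the ligands run from 2 genes on that array to 14 on KO LCA 3.

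The question of each comparison was what 1 day of ligation did within a genotype, and what the genotype did within an artery. Of the 36 ligands, 25 had a probe that reached the median of its array on 3 or more arrays and entered the limma fit with 15292 genes in all. No ligand passed a Benjamini-Hochberg adjusted p of 0.05 over all genes in any of the 5 comparisons, the interaction included. The fit called 0.0% of all genes in both ligation comparisons, in KO RCA against WT RCA and in the interaction, and 0.00654% (1 gene) in KO LCA against WT LCA. The lowest adjusted p of a ligand was 0.525, for Ccl6 in KO LCA against WT LCA (limma). The values below therefore describe these arrays and show no difference that passed. Whether fewer cells of a type or less RNA per cell lies behind a level in these bulk samples cannot be told apart.

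Cxcl1, also known as KC, binds Cxcr2 on neutrophils and is a standard NF-kB target. It measured 243, 419 and 414 in WT RCA and 454, 577 and 713 in WT LCA. In the knockout it measured 349.7, 275 and 420.1 in RCA and 482, 361 and 422 in LCA. All 3 ligated WT arteries were above all 3 unligated ones, with means of 581 ± 129 and 359 ± 100 (SD, n = 3), while the KO LCA and KO RCA arrays overlapped at 422 ± 60.4 and 348 ± 72.3 (SD, n = 3). The WT ligation difference was 0.72 ± 0.25 on the log2 scale (SE, limma adjusted p = 0.683), and the KO one 0.29 ± 0.25 (adjusted p = 0.855). The ligation effects themselves differed by -0.43 ± 0.35 (limma interaction, adjusted p = 0.903), so a smaller response in the knockout was not shown. KO RCA differed from WT RCA by -0.02 ± 0.25 and KO LCA from WT LCA by -0.45 ± 0.25 (adjusted p = 1.00 and 0.760, limma). The WT difference was 0.46 without WT RCA 1, the lowest of the 12 arrays. Without WT LCA 3, the highest, it was 0.56, KO LCA against WT LCA was -0.29 and the interaction -0.27 (limma adjusted p = 0.789, 0.911 and 0.903).

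The other neutrophil attractants of this class stayed at background. Cxcl2 measured 83.6 to 95.1, Cxcl3 82.0 to 100.1 and Cxcl15, known as lungkine, 86.2 to 97.7, and none was above the receptor level on any array. Cxcl2 did not enter the fit. Cxcl3 measured 90.5, 84.1 and 93.4 in WT RCA, 95.2, 93.2 and 87.9 in WT LCA, 100.1, 92.4 and 94.8 in KO RCA, and 82.0, 89.9 and 83.5 in KO LCA. Its KO LCA arrays were all below the KO RCA ones. The difference was -0.17 ± 0.06 (limma adjusted p = 0.725) and the interaction -0.21 ± 0.09 (limma adjusted p = 0.903), both within the range where a probe has only a bound. Without WT LCA 3 the interaction was -0.25 (limma adjusted p = 0.889). Cxcl15 measured 97.7, 94.0 and 95.2 in KO RCA and 88.5, 88.0 and 88.3 in KO LCA, a difference of -0.12 ± 0.05 (limma adjusted p = 0.732) under the same limit. In WT it ran from 88.1 to 97.4 in RCA and from 86.2 to 90.7 in LCA, which overlap.

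Neutrophil markers were measured beside Cxcl1. The summed intensity of 11 neutrophil genes was 1036 to 1245 in WT RCA, 1069.6 to 2104 in WT LCA, 1037 to 1628 in KO RCA and 1097 to 1252 in KO LCA. S100a9, a granule and cytosol protein of neutrophils, measured 709, 147 and 334 in WT LCA and 115, 150 and 149 in WT RCA. In the knockout S100a9 measured 96.2, 658 and 186 in RCA and 207, 313 and 169 in LCA. Its highest WT LCA array was the first, as it was for S100a8, Csf3r, Retnlg, Mmp8, Mmp9 and Ngp. Within WT LCA, Il1r2, Ltf, Cxcr2 and Camp were highest on WT LCA 3, the array of the highest Cxcl1, at 174, 175, 134 and 109. The receptor level there was 127, so Camp was under it and Cxcr2 little above. On WT LCA 1 that level was 98.7, with Ngp at 89.5 and Mmp8 at 97.9 under it. Mmp9 read 111 on both WT LCA 1 and WT LCA 2. Of the 10 neutrophil markers in the fit, 8 had a difference above 0 in WT ligation, as did 7588 of all 15292 genes. In the interaction, 10 had one below 0, as did 8088 of all genes. Both counts read the same WT LCA arrays. None passed (Il1r2 in WT ligation 0.49 ± 0.20, limma adjusted p = 0.683, and 0.22 without WT LCA 3). Camp, Csf3r, Ltf and Ngp were above the receptor level on 2 arrays each and Retnlg on 1. Mmp8, a neutrophil collagenase, was above the receptor level on no array. The part of neutrophils in the Cxcl1 values was not tested.

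Cxcl12, the homeostatic ligand of Cxcr4 and Ackr3 made by stromal and endothelial cells, was above the receptor level on 11 arrays. It measured 146, 166 and 207 in WT RCA and 263, 155 and 121 in WT LCA. In the knockout it measured 167, 209 and 366 in RCA and 293, 305 and 309.6 in LCA. The KO LCA arrays lay close together (303 ± 8.38) and all above WT LCA (179.6 ± 74.1, SD, n = 3), where WT LCA 3 was the 1 array under the receptor level. KO LCA exceeded WT LCA by 0.83 ± 0.32 (log2, SE, limma adjusted p = 0.629), and by 0.59 without WT LCA 3 (adjusted p = 0.784). KO RCA and WT RCA overlapped, with a difference of 0.45 ± 0.32 (limma adjusted p = 1.00) that was 0.13 without KO RCA 3. Ligation gave -0.01 ± 0.32 in WT and 0.37 ± 0.32 in KO (limma adjusted p = 0.995 and 0.853), and 0.24 in WT without WT LCA 3 (limma adjusted p = 0.941).

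The gene has 4 further probes, and they gave smaller or opposite genotype differences. Their KO LCA against WT LCA differences ran from -0.18 to 0.28, and their KO RCA against WT RCA differences from -0.61 to 0.15. Of the 4, 2 shared the sign of the chosen probe in both, with 0.28 and 0.10 in LCA and 0.15 and 0.02 in RCA. The same 2 gave 0.41 and 0.37 for ligation in KO, where the chosen probe gave 0.37. For ligation in WT they gave 0.28 and 0.30, where the chosen probe gave -0.01. Over all 4, ligation ran from -0.23 to 0.30 in WT and from -0.08 to 0.41 in KO. A second Cxcl12 probe measured 436 in WT RCA 1 and 292 in WT LCA 2 against 92.0 to 172 on the other 10 arrays, where the chosen probe was at 146 and 155 on those same 2 arrays. Of the others, the probe that measured 189.6 on WT LCA 1 and 121 on WT LCA 2 read 88.2 on WT LCA 3, and the probe at 140.4 and 133 on those arrays read 88.7 there. The Cxcl12 value therefore depends on the probe read.

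The homeostatic lymphoid ligands were near background. Ccl19, which with Ccl21a draws Ccr7-bearing cells, measured 89.5, 94.4 and 88.4 in WT RCA and 104, 102 and 97.8 in WT LCA, with no overlap. In the knockout it measured 92.0, 100.3 and 88.4 in RCA and 109, 102 and 98.5 in LCA, which overlap. It was above the receptor level on 2 of 3 arrays in both ligated groups, on 1 in KO RCA and on none in WT RCA. The WT difference was 0.16 ± 0.06 and the KO one 0.14 ± 0.06 (limma adjusted p = 0.683 and 0.741), the former 0.18 without WT LCA 3 (limma adjusted p = 0.789). Cxcl13, the B cell attractant, reached 149 on KO LCA 1 and was above the level on 2 KO LCA arrays only. Ccl21a and Ccl21c are near-identical copies whose probes may read each other, and Ccl21a was above the level on 1 array.

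**Figure D3:**
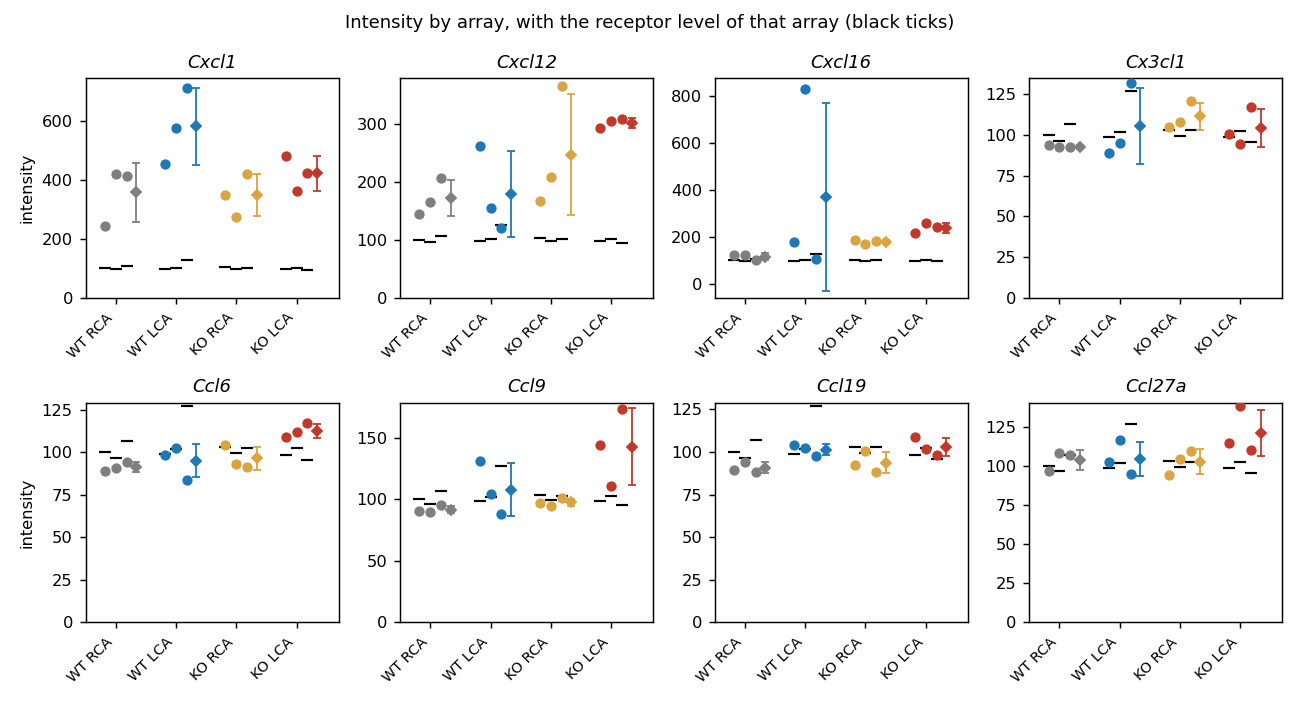
Points are the intensity on each array by group, with the group mean and SD and black ticks for each array's receptor level, for the ligands above that level throughout at least 1 group and for Ccl19. Cxcl1 in WT LCA (454 to 713) lies above WT RCA (243 to 419), and 1 WT LCA point of Cxcl16 stands at 832.

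The membrane-bound ligands gave a different picture from each other. Cxcl16, which binds Cxcr6 on T cells and takes up oxidised lipoprotein, measured 125, 124 and 100.2 in WT RCA and 177, 832 and 104 in WT LCA. It measured 185, 170.0 and 183 in KO RCA and 215, 259 and 240.3 in KO LCA. Both knockout groups were above the receptor level on all 3 arrays, and all KO LCA arrays were above all KO RCA arrays, which in turn were above all WT RCA arrays. Means were 116 ± 13.8 in WT RCA, 179 ± 8.25 in KO RCA and 238 ± 22 in KO LCA, against 371 ± 401 in WT LCA (SD, n = 3).

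That WT LCA spread is 1 array. The shared error of the fit takes it in, so the Cxcl16 differences had an SE of 0.59: 0.63 for KO RCA against WT RCA, 0.41 for ligation in KO, 1.10 for ligation in WT and -0.06 for KO LCA against WT LCA (limma adjusted p = 1.00, 0.949, 0.683 and 0.990). Without WT LCA 2, WT ligation gave 0.23 (limma adjusted p = 0.691) and KO LCA against WT LCA 0.81 ± 0.20 (limma adjusted p = 0.297). Leaving out WT LCA 3 gave 1.73 and -0.69 (limma adjusted p = 0.634 and 0.859). The other Cxcl16 probe measured 106 on WT LCA 2, where the chosen probe read 832, and 231 on KO RCA 2, where the chosen probe read 170.0. It gave 0.51 for KO RCA against WT RCA, 0.23 for KO LCA against WT LCA, -0.21 for ligation in KO and 0.08 for ligation in WT. The 2 probes shared their sign in KO RCA against WT RCA and in WT ligation, and differed in sign in KO ligation and in KO LCA against WT LCA. Cxcr6, the receptor, was above the receptor level on 2 arrays.

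Cx3cl1, or fractalkine, which tethers Cx3cr1-bearing monocytes to endothelium, measured 93.6, 92.5 and 92.3 in WT RCA and 105, 108 and 121 in KO RCA. It measured 88.7, 95.1 and 132 in WT LCA and 101, 94.6 and 117 in KO LCA. All KO RCA arrays were above the receptor level and all WT RCA arrays below it, while the left arteries overlapped. On group means of log2 intensity, KO RCA was at least 1.10-fold above WT RCA. This bound takes the higher of the receptor level and the probe on each WT RCA array, and leaves out the spread between arrays. The fitted difference was 0.26 ± 0.14 (limma adjusted p = 1.00) in RCA.

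Ccl6 and Ccl9, which act on Ccr1 of myeloid cells and are made largely by macrophages and other myeloid cells, were above the receptor level throughout KO LCA and in no other complete group. Ccl9 measured 90.3, 89.4 and 95 in WT RCA, 131, 104 and 88.2 in WT LCA, 96.7, 94.7 and 101 in KO RCA, and 144, 110.5 and 173 in KO LCA. Every KO LCA array was above every KO RCA array, and WT LCA overlapped both left and right groups. By the same kind of bound on group means, KO LCA was at least 1.38-fold above KO RCA. The fitted difference was 0.53 ± 0.17 (limma adjusted p = 0.725). In WT, ligation gave 0.22 ± 0.17 (limma adjusted p = 0.694), and the interaction was 0.31 ± 0.24 (limma adjusted p = 0.903). Without WT LCA 3, the lowest Ccl9 array, they were 0.35 and 0.18 (limma adjusted p = 0.789 and 0.899). KO LCA against WT LCA gave 0.40 ± 0.17 (limma adjusted p = 0.702), with 0.26 without WT LCA 3 (limma adjusted p = 0.822) and 0.25 without KO LCA 3.

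Ccl6 measured 88.6, 90.5 and 94.5 in WT RCA, 98.5, 103 and 83.9 in WT LCA, 104, 93.2 and 91.4 in KO RCA, and 109, 112 and 117 in KO LCA. Its 3 KO LCA arrays were above the other 9. The mean was 113 ± 4.21 in KO LCA against 95 ± 9.86 in WT LCA and 96.3 ± 7.01 in KO RCA (SD, n = 3). The differences were 0.25 ± 0.08 against WT LCA and 0.23 ± 0.08 against KO RCA (limma adjusted p = 0.525 and 0.725), and both comparisons share the KO LCA arrays. The first was 0.16 without WT LCA 3 (adjusted p = 0.687). Of the same receptor class, Ccl3 and Ccl4 were above the receptor level on no array.

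Markers of macrophages and of wall cells were measured beside these genes. Cd163, a scavenger receptor of resident macrophages, measured 139, 141 and 165 in KO LCA and 79.7 to 103 on the other 9 arrays, a difference from WT LCA of 0.74 ± 0.11 (limma adjusted p = 0.0783, and 0.69 with 0.127 without WT LCA 3), whereas its other probe gave 0.05. It was the only 1 of 13 macrophage markers above the receptor level throughout a group, and Itgam and Fcgr1 were above it on no array. The summed intensity of the 13 was 1206 to 1409 in WT RCA, 1186 to 1326 in WT LCA, 1205 to 1228 in KO RCA and 1226 to 1379 in KO LCA, which overlap. Of 12 fibroblast markers, 10 were above the level throughout KO LCA, against 5 throughout WT RCA, 2 throughout WT LCA and 6 throughout KO RCA. The share of all genes, given above with the ligand counts, was likewise highest in KO LCA and lowest in WT LCA. In every group the share of fibroblast markers was above that of all genes. The counts above the level were not repeated without WT LCA 3, so they do not order the groups. None of the 12 passed in the fit. In KO LCA against WT LCA, 7 were higher and 0 lower at an unadjusted limma p under 0.05. Among all genes 4.83% and 1.97% were. KO ligation gave 6 and 0 (2.79% and 3.98%) and WT ligation 0 and 3 (2.45% and 4.46%). KO RCA against WT RCA gave 0 and 2 (2.51% and 1.79%) and the interaction 5 and 0 (2.17% and 1.33%). These comparisons share arrays. Without WT LCA 3 the 7 differences were 0.31 to 1.03. The summed intensity of the fibroblast markers was 1952 to 2685 in KO LCA, 1608 to 1971 in WT LCA, 1863 to 2143 in KO RCA and 1921 to 3141 in WT RCA. Of 6 adipocyte markers the sum was 889 to 1195.5 in KO LCA against 562 to 791 over the other 9 arrays. Fabp4 (427, 329 and 323) and Pck1 (337, 212 and 194) made up much of the KO LCA sum. Adipoq and Cidec were above the receptor level on 2 arrays each, and Plin1 and Lep on none. The 10 smooth muscle markers summed to 1954 to 2474 in KO LCA and 933 to 1703 in WT LCA, without overlap, and to 1322 to 2144 in KO RCA and 987 to 1204 in WT RCA. These sums rest largely on Acta2, at 1049, 1052 and 895 in KO LCA and 514, 257 and 89.9 in WT LCA. Smtn alone read 717 on KO LCA 3. The sums therefore do not show a shift of all 10 markers. Acta2, smooth muscle actin, differed by 2.13 ± 0.63 between KO LCA and WT LCA (limma adjusted p = 0.440), with 1.46 without WT LCA 3, and its 5 other probes gave 0.014 to 1.21. Tagln gave 0.22 ± 0.07 (limma adjusted p = 0.498). The part of these cells in the Ccl6, Ccl9 and Cxcl12 values was not tested.

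Ccl5, or RANTES, a T cell and monocyte attractant, was above the receptor level on 1 array. It measured 86.4, 89.7 and 87.6 in WT RCA, 101, 92.7 and 95.7 in WT LCA, 101, 91.2 and 97.7 in KO RCA, and 92.6, 94.6 and 85.9 in KO LCA. The WT RCA arrays were the lowest group, without overlap with WT LCA or KO RCA. KO RCA against WT RCA gave 0.14 ± 0.06 and the interaction -0.22 ± 0.09 (limma adjusted p = 1.00 and 0.903), and the latter -0.23 without WT LCA 3 (limma adjusted p = 0.889), all at levels where the probe has only a bound.

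Ligands of Cxcr3, which draw activated T cells after interferon, were at background. Cxcl9 was above the receptor level on 1 array and Cxcl10 and Cxcl11 on none, with ranges of 88.5 to 101.7, 87.5 to 116 and 85.0 to 121. Cxcl9 measured 93.0, 89.7 and 94.4 in WT RCA, 101, 92.0 and 102 in WT LCA, 97.0, 96.3 and 91.4 in KO RCA, and 88.5, 89.6 and 91.7 in KO LCA. KO LCA lay below WT LCA without overlap, by a fitted -0.13 ± 0.05 (limma adjusted p = 0.721) and -0.10 without WT LCA 3 (limma adjusted p = 0.790), and a bound on the fold could not be set. Cxcl10 reached its highest value on an array whose receptor level was higher still.

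Ccl27a, a skin ligand of Ccr10, was above the receptor level on 8 arrays and throughout KO LCA. It measured 96.5, 109 and 107 in WT RCA, 102, 116 and 94.5 in WT LCA, 94.0, 105 and 109 in KO RCA, and 115, 138 and 110.3 in KO LCA. KO LCA was above KO RCA by 0.23 ± 0.11 (limma adjusted p = 0.748) without overlap, while the other probe of the gene gave -0.01. The rest of the eosinophil, Th2 and mucosal ligands had no complete group above the level.

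Among the monocyte chemoattractant proteins, Ccl8 was above the receptor level on no array, Ccl2 and Ccl12 on 1 each and Ccl7 on 5. Ccl7 and Ccl25 each had 1 array far from the rest, and both are named for that value, seen in the data. Ccl7 measured 499 on WT LCA 2 and 91.4 to 117 on the other 11, and its other probe measured 97.2 on WT LCA 2. Ccl25, a thymus and gut ligand, measured 791 on KO LCA 1 and 86.3 to 105 on the other 11, and its other probes measured 96.2 and 85.0 there. These 2 values and the 832 of Cxcl16 are thus readings of 1 probe on 1 array that no other probe of the gene repeated, and they set the group means they fall in.

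**Figure D4:**
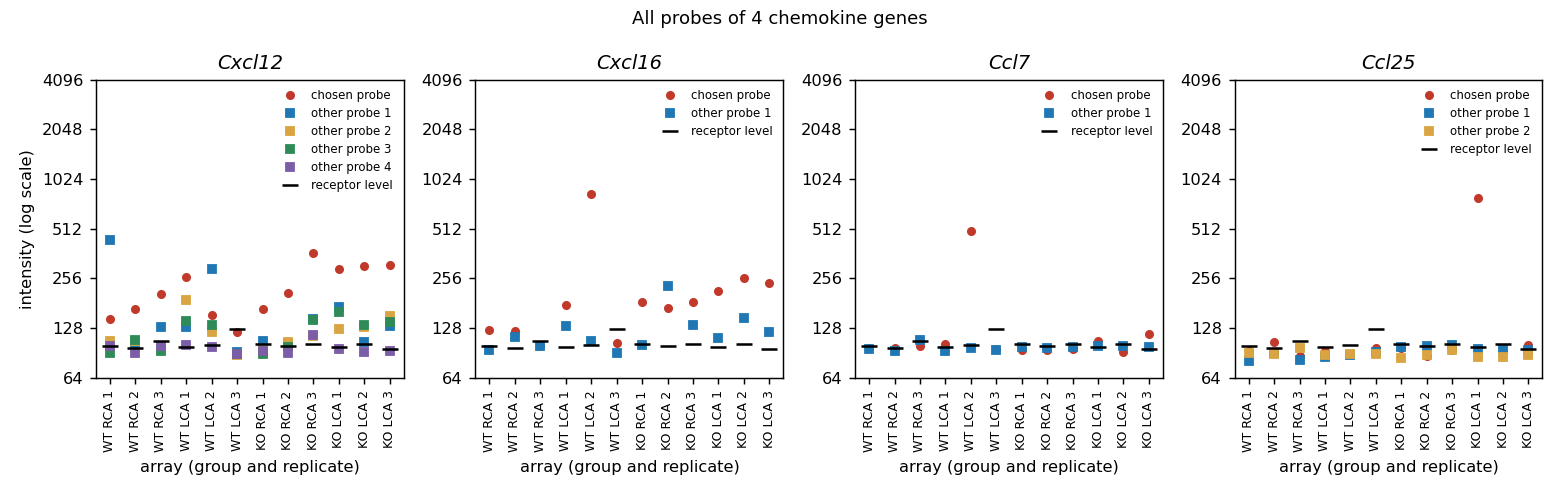
All probes of Cxcl12, Cxcl16, Ccl7 and Ccl25 are plotted as intensity (log axis) on each of the 12 arrays, with the receptor level of each array as black ticks. Single points at 832 (Cxcl16, WT LCA 2), 499 (Ccl7, WT LCA 2) and 791 (Ccl25, KO LCA 1) stand above the other probes of the same gene on that array.

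Counts over the 25 ligands that passed the filter were small. An unadjusted limma p under 0.05 was met in WT ligation by 2 ligands that were higher and 0 that were lower (2.45% and 4.46% of all genes). KO ligation gave 2 and 2 (2.79% and 3.98%), KO RCA against WT RCA 1 and 0 (2.51% and 1.79%), KO LCA against WT LCA 3 and 1 (4.83% and 1.97%), and the interaction 0 and 2 (2.17% and 1.33%). Cxcl1 and Ccl19 were higher in WT LCA than in WT RCA. Ccl6 and Ccl9 were higher and Cxcl3 and Cxcl15 lower in KO LCA than in KO RCA, and Ccl6, Ccl9 and Cxcl12 were higher and Cxcl9 lower in KO LCA than in WT LCA. The median log2 difference of the 25 was 0.09 in WT ligation, 0.06 in KO ligation, 0.03 in KO RCA against WT RCA, -0.0086 in KO LCA against WT LCA and -0.04 in the interaction, where all genes had -0.0013, -0.0060, 0.0019, -0.0086 and -0.012. These counts cover only genes that passed the filter on low values and say nothing of the 11 ligands that did not.

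Groups without overlap gave a similar account. In WT, Cxcl1, Ccl5, Ccl19, Ccl24 and Cxcl14 were higher on all ligated arrays than on all unligated ones and Ccl12 lower, 5 and 1 of 25, where 4.51% and 6.59% of all genes did so. Of the 5, Cxcl1 alone was above the receptor level throughout a group. In KO, Ccl6, Ccl9, Ccl27a, Cxcl11 and Cxcl16 were higher and Ccl12, Cxcl3, Cxcl15 and Xcl1 lower (8.47% and 11.4% of all genes). KO RCA lay above WT RCA for Ccl5, Cx3cl1 and Cxcl16 and below it for Ccl7 (6.79% and 5.19%), and KO LCA lay above WT LCA for Ccl6, Ccl20 and Cxcl12 and below it for Cxcl9 (8.24% and 5.5%).

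**Figure D5:**
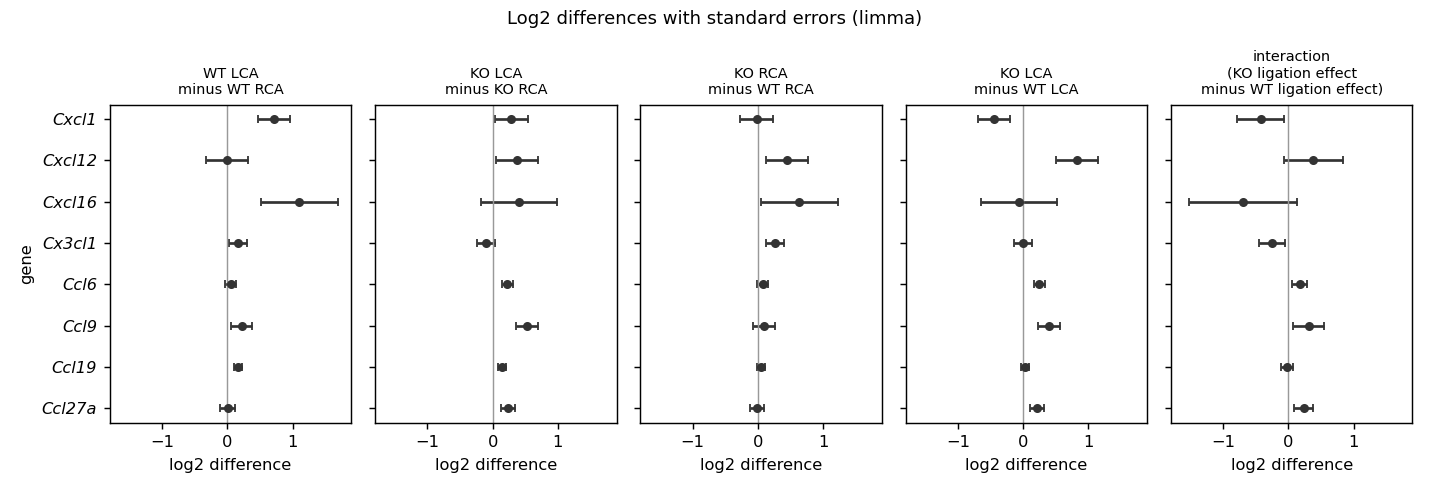
Points are log2 differences and bars their standard errors from the limma fit, for the 7 ligands above the receptor level throughout a group and Ccl19, in each of the 5 comparisons. Cxcl1 in WT ligation (0.72), Cxcl12 in KO LCA against WT LCA (0.83) and Cxcl16 in WT ligation (1.10) lie farthest from 0 on the right, and the bars of Cxcl16 are the widest, at 0.59 in the 4 differences between groups and 0.83 in the interaction.

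Chemokine receptors, which leukocytes and some wall cells carry, were measured for 23 of 24 listed genes, and 9 were above the receptor level on no array (Ccr1, Ccr4, Ccr7, Ccr8, Ccr10, Cxcr1, Cxcr3, Xcr1 and Ackr1), where 29.5% of all genes were. None of the 16 that entered the fit passed in any comparison, and few met an unadjusted p under 0.05. WT ligation had 0 higher and 1 lower (2.45% and 4.46% of all genes), KO ligation 1 and 1 (2.79% and 3.98%), KO RCA against WT RCA 0 and 0 (2.51% and 1.79%), KO LCA against WT LCA 0 and 1 (4.83% and 1.97%) and the interaction 0 and 1 (2.17% and 1.33%), which for 16 genes is close to the shares of all genes. Ackr3, a scavenging receptor for Cxcl12, measured 108, 135 and 139 in WT RCA and 105, 93.1 and 90 in WT LCA. The WT arteries did not overlap, and ligation gave -0.40 ± 0.11 (limma adjusted p = 0.575), or -0.35 without WT LCA 3 (adjusted p = 0.773). Cxcr2, the receptor of Cxcl1, measured 114, 107 and 134 in WT LCA and 99.7, 96.8 and 93.8 in KO LCA, with a difference of -0.29 ± 0.10 (limma adjusted p = 0.558), -0.27 by its other probe and -0.19 without WT LCA 3 (adjusted p = 0.714). Cxcr4, the signalling receptor of Cxcl12, was above the level on 7 arrays and in no complete group. Ccr3, the eotaxin receptor, gave -0.29 ± 0.08 in KO ligation and -0.25 ± 0.11 in the interaction, and Cx3cr1, the fractalkine receptor, gave 0.18 ± 0.06 in KO ligation (limma adjusted p = 0.725, 0.903 and 0.725), both at the level of background on most arrays. The Ccr3 interaction was -0.24 without WT LCA 3 (limma adjusted p = 0.889).

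The list of chemokine inducers and NF-kB targets had 38 genes, of which 36 had a probe and 34 entered the fit, and none passed. An unadjusted p under 0.05 was met by 4 higher and 1 lower in WT ligation (2.45% and 4.46% of all genes) and by 2 and 0 in KO ligation (2.79% and 3.98%). KO RCA against WT RCA had 6 and 1 (2.51% and 1.79%), KO LCA against WT LCA 5 and 1 (4.83% and 1.97%) and the interaction 1 and 2 (2.17% and 1.33%). The list also held Pf4, a platelet chemokine given further below. Pf4 is counted among the higher genes in KO ligation and in KO LCA against WT LCA. Tnf, Ifng, Rel and Csf2 were above the receptor level on no array. Nfkbia, the NF-kB inhibitor that NF-kB itself induces, was above it on all 12 and gave 0.47 ± 0.19 in WT ligation and 0.43 ± 0.19 in KO ligation (limma adjusted p = 0.683 and 0.732). Its other probe gave 0.32 and -0.13, and the WT value was 0.25 without WT LCA 3 (limma adjusted p = 0.825).

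Endothelial adhesion genes of this list differed in direction between the unligated arteries, and none passed. Icam1 measured 276, 250 and 286 in WT RCA and 675, 702 and 843 in KO RCA, a difference of 1.44 ± 0.20 (limma adjusted p = 0.202). In the left arteries it measured 403, 315 and 535 in WT and 665, 608 and 452 in KO, which overlap. Sele gave 1.65 ± 0.35 and Vcam1 0.87 ± 0.36 in KO RCA against WT RCA (limma adjusted p = 0.575 and 1.00), and the other Vcam1 probes 0.24 to 0.33. Selp, or P-selectin, lay the other way, at 400.4, 398 and 383 in WT RCA and 332, 266 and 327 in KO RCA, without overlap. Unlike those of Icam1, Sele and Vcam1, the Selp difference did not meet an unadjusted limma p under 0.05. Cxcl1, for which the same comparison gave -0.02, overlapped between these groups, whereas Cx3cl1 and Cxcl16 were higher in KO RCA without overlap. KO RCA against WT RCA also gave 0.51 ± 0.19 for Tlr4, 0.25 ± 0.10 for Tnfaip3, 0.18 ± 0.07 for Tnip1 and -0.70 ± 0.27 for Il1r1 (each with a limma adjusted p of 1.00). The other Tnip1 probes gave -0.14 to -0.02 and the other Il1r1 probe -0.10. Red cell and platelet markers summed to 2641 to 6158 in KO RCA against 1184 to 2468 in WT RCA. In the left arteries the sums were 1851 to 2705 in WT and 2084 to 3502 in KO, and both overlap KO RCA.

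In the comparisons that take in ligated arteries, the list gave Icam1, Sele and Tlr4 again, beside other genes. WT ligation gave 0.76 ± 0.19 for Tlr4, the lipopolysaccharide receptor, 0.59 ± 0.20 for Icam1, 0.37 ± 0.16 for Tnfrsf1a and -0.57 ± 0.18 for Nfkbiz (limma adjusted p = 0.532, 0.683, 0.683 and 0.654), and the other Tlr4 probes gave -0.03 and 0.04. Without WT LCA 3 the 4 values were 0.73, 0.40, 0.27 and -0.42 (limma adjusted p = 0.678, 0.789, 0.849 and 0.789). KO LCA against WT LCA gave 0.76 ± 0.20 for Rela, an NF-kB subunit, 0.62 ± 0.18 for Nfkbiz, 1.03 ± 0.35 for Sele, 0.47 ± 0.20 for Icam1 and -0.70 ± 0.27 for Selp (limma adjusted p = 0.339, 0.428, 0.531, 0.690 and 0.629). Leaving out WT LCA 3, these were 0.80, 0.47, 1.25, 0.67 and -0.39 (limma adjusted p = 0.458, 0.634, 0.508, 0.378 and 0.769). The interaction gave -0.97 ± 0.28 for Icam1, -0.87 ± 0.27 for Tlr4 and 0.64 ± 0.25 for Nfkbiz (each with a limma adjusted p of 0.903), and -0.77, -0.84 and 0.49 without WT LCA 3 (each with a limma adjusted p of 0.889).

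Pf4 and Ppbp are platelet chemokines whose symbols fall outside the naming rule. Pf4 measured 178, 95.7 and 190.2 in KO LCA and 90.7 to 106 on the other 9 arrays, with differences of 0.58 ± 0.21 from KO RCA and 0.55 ± 0.21 from WT LCA (limma adjusted p = 0.725 and 0.629). The groups overlapped through KO LCA 2, and the second difference was 0.58 without WT LCA 3 (limma adjusted p = 0.689). Ppbp measured 285 on KO RCA 3 and was above the receptor level on no other array.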

How the data were processed

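RNA of 12 carotid samples was read on one-colour Illumina arrays, per the labels' protocols. Values were deposited as linear intensity per probe, normalized by the authors: sorted values of the arrays agreed within 0.562% at most (median 0.138%), as after quantile normalization. The sources used here do not give the background step, the normalization tool or the chip of each array, so no slide block was tested. The median intensity was 93.6 and the highest 10230. The number of arrays limits the precision.

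Of 45281 probes, 34885 had 1 symbol in the platform annotation, 18 several and 10378 none; the last 2 kinds were left out. Log2 intensities of 15292 genes, each by its highest-mean probe at or above the array median on at least 3 arrays, entered 1 limma fit (version 3.58.1, R 4.3.3) of 4 group means, with eBayes, two-sided p-values and Benjamini-Hochberg adjustment over all genes at 0.05. The fit was tested on simulated data. A motif search in the promoters was left out, because the sources used here hold no motif sequence. Full values are given for ligands above the receptor level throughout a group or with an unadjusted p under 0.05 in any comparison, and listed receptors and inducers are named with values by the same p; genes named otherwise (S100a9, Mmp8, Cxcr4, Cxcr6, Ppbp, Ccl7, Ccl25 and others given only by range) were chosen after their values were seen. Members, lists and rules were chosen with earlier results of these data known. Left and right arteries of the same number did not deviate together (r from -0.016 to 0.072), so numbers were not used as pairs. Alternatives covered filters, probe choice, scaling, weights, the receptor percentile and each array left out.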

Additional observations from a re-analysis of the deposited data

How the results depend on the processing

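No ligand passed in any of the 5 comparisons under the alternative settings run, 23 for each ligation comparison and 22 for each of the others (the fixed replicate block was run for the ligation comparisons and the interaction, and the fit of only the groups compared for all but the interaction). They include array weights, a filter at the receptor level, no filter, the mean of all probes, 2 other scalings, a pseudocount of 16 and each array left out; the lowest limma adjusted p of a described ligand was 0.210 (Ccl6, KO LCA against WT LCA, after subtracting the receptor median). With the replicate number as a block, random or fixed, the count was 0 in every comparison fitted, and the numbers do not pair the samples. Of 570 alternative values of 26 ligand comparisons, 556 kept their sign and 14 reversed. With array weights, Cxcl1 in KO RCA against WT RCA was 0.034 and Cxcl12 in WT ligation 0.15. With the mean of all probes, Cxcl12 in WT ligation was 0.065 and Cxcl16 in KO LCA against WT LCA 0.080, and the latter was 0.55 after subtracting the receptor median. Leaving out 1 array at a time gave -0.28 to 0.14 for Cxcl1 in KO RCA against WT RCA, -0.32 to 0.24 for Cxcl12 in WT ligation, -0.69 to 0.81 for Cxcl16 in KO LCA against WT LCA and -1.33 to 0.17 for its interaction. The cause of these reversals was not tested. Ligands above the receptor level on at least 2 of 3 arrays numbered 4 in WT RCA, 7 in WT LCA and 12 in KO LCA, and the 90th percentile gave 2 in WT LCA. Leaving out 1 array at a time gave 2 to 4 in WT RCA, 1 to 7 in WT LCA, 4 to 6 in KO RCA and 6 to 12 in KO LCA. Signal over background limits what can be read: 16 ligands were at or under the receptor level on every array. With a floor of 16, 7 values could not be computed because every array of the groups compared sat on it.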
